A study of Mus musculus with 2 samples.

Results

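The genes described here store and import fatty acids. They are 10 genes chosen by name: Plin2 and Plin5, which encode coat proteins of lipid droplets, Pnpla2, which encodes the droplet lipase ATGL, the uptake genes Cd36 and Slc27a2, the fatty acid binding genes Fabp1, Fabp3 and Fabp5, and Dgat1 and Dgat2, whose enzymes make triglyceride. The array carried 16 probes for these 10 genes, and 9 of the genes were measured, out of 16698 measured genes in all. Kidney RNA came from male CD-1 mice, 7 weeks old at the start, that ate AIN-93G diet containing 0.2% adenine by weight for 1 week. A group ate this diet alone, and another ate it with 2% HMPA by weight, the phenolic acid 3-(4-hydroxy-3-methoxyphenyl)propionic acid, so both groups received adenine. The titles of the samples differ from the protocol: they put the mice at 12 weeks of age and mention 5 mice, and whether RNA was pooled is not stated. No kidney without adenine was on the arrays, and the study's title asks about fibrosis and inflammation in this model of chronic kidney disease.

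RNA of both conditions shared each of 2 arrays, and the dyes were exchanged between the arrays. The arrays were treated as repeat measurements of 1 RNA sample per condition, since nothing in the labels separates animals or extracts by array. No p-value is therefore given, and the spread between animals is unknown. Ratios are log2 of HMPA over adenine alone, as the mean of both arrays, and ± gives how far either array lies from that mean. Higher and lower are used of a gene whose mean ratio reached 2-fold and whose ratio on each array reached 1.5-fold in the same direction. This is a rule of size, not a test. Of the gene spots, 57.9% to 67.9% were well above background in the 4 channels.

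Proximal tubule cells take up fatty acids from the blood and from filtered albumin and burn them as their main fuel. Fatty acids enter through carriers such as CD36 and FATP2, are bound in the cytosol by small binding proteins and are activated with coenzyme A. What is not oxidised is esterified to triglyceride by DGAT enzymes and kept in droplets coated by perilipins, from which ATGL releases it again. Many of these genes are textbook targets of PPARA, a nuclear receptor that binds a pair of AGGTCA half-sites spaced by a single base.

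The sequences just upstream of the transcription start are shown because 4 of the 5 genes that were higher have an entry, as does Plin2, the gene that moved the other way in sign. RefSeq promoters on build GRCm38.p6 matched 7 of the 10 genes, without Fabp5, Dgat1 and Dgat2. Each sequence is the 250 bases before the start, in the direction of the gene. Capitals mark each exact AGGTCA, read on either strand as AGGTCA or TGACCT. They also mark the closest match of a window to 2 copies spaced by 1 base, where it has at most 2 mismatches. The single Plin5 sequence belongs to the upstream of its 2 annotated starts.
Fabp1 (chr6:71199629-71199878, plus strand): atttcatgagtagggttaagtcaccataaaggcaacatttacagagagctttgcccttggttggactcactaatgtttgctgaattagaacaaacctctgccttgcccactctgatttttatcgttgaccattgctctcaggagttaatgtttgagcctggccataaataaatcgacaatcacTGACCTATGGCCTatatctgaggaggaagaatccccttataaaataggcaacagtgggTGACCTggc
Cd36 (chr5:17835897-17836146, minus strand): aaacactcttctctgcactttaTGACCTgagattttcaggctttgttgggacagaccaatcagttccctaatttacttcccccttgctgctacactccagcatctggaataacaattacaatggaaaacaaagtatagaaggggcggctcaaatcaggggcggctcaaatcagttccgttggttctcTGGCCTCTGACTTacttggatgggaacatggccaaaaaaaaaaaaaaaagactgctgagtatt
Slc27a2 (chr2:126552774-126553023, plus strand): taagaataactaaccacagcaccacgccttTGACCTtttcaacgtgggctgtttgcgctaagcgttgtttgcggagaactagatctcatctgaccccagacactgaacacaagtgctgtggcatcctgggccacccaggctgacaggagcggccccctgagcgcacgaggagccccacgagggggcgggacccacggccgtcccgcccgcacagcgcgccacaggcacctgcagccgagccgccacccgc
Plin5 (chr17:56117549-56117798, minus strand): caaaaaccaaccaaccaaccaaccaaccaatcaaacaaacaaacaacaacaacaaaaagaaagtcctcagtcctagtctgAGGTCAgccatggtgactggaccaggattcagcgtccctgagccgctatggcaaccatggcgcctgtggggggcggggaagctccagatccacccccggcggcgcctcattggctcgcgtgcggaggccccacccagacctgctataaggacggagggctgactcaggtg
Plin2 (chr4:86670060-86670309, minus strand): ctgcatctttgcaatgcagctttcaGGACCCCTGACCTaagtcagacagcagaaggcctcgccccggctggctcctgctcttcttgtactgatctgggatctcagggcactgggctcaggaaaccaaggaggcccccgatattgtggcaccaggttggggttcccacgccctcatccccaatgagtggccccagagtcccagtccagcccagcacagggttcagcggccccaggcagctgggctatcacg

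The Fabp1 window held the paired motif with 1 mismatch, on the antisense strand from base −67 to base −55 before the start. Of 32851 RefSeq windows of the same length, 0.484% held it with at most 1 mismatch. The Cd36 window (from −63 to −51) and the Plin2 window (from −225 to −213) matched it with 2 mismatches. Of all windows, 3.24% held a match with at most 2 mismatches. The best match had 3 mismatches in Slc27a2 and in the Plin5 window shown, a closeness reached by 21.3% of windows, 4 in Fabp3 and 5 in Pnpla2. The window of the downstream Plin5 start, not shown, had 4 mismatches at best and no exact AGGTCA. The windows of Fabp3 and Pnpla2, not shown, also held no exact AGGTCA. An exact AGGTCA stood in the windows shown for Fabp1, Cd36, Slc27a2, Plin5 and Plin2 and in 14.0% of all windows. The paired motif contains this half-site. The letters of the motif therefore occurred upstream of genes that were higher and of Plin2, which was not. These matches describe the sequence only.

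With HMPA, both uptake genes were higher, as were 1 of 2 droplet coat genes, 1 of 2 triglyceride synthesis genes and 1 of 2 measured binding genes, while the lipase gene was not. Of the 9 measured genes, 5 were higher by the rule and 0 lower: Slc27a2, Cd36, Plin5, Dgat2 and Fabp1. Among all 16698 genes, 6.64% were higher and 7.72% lower, together 14.4%. With both arrays left as Cy5 over Cy3, 0% met the rule in the same dye direction. That share is no measure of noise. A difference between conditions has opposite signs on the swapped arrays in this reading, and loess had already removed dye trends. The median log2 ratio of the 9 genes was 1.19 (0.97 on array 1 and 1.42 on array 2), beside −0.04 over all genes. All 9 had their probe above background in all 4 channels, so none was kept only through the condition in which it was high. In bulk kidney RNA, fewer cells of a type and less RNA per cell cannot be told apart.

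**Figure D1:**
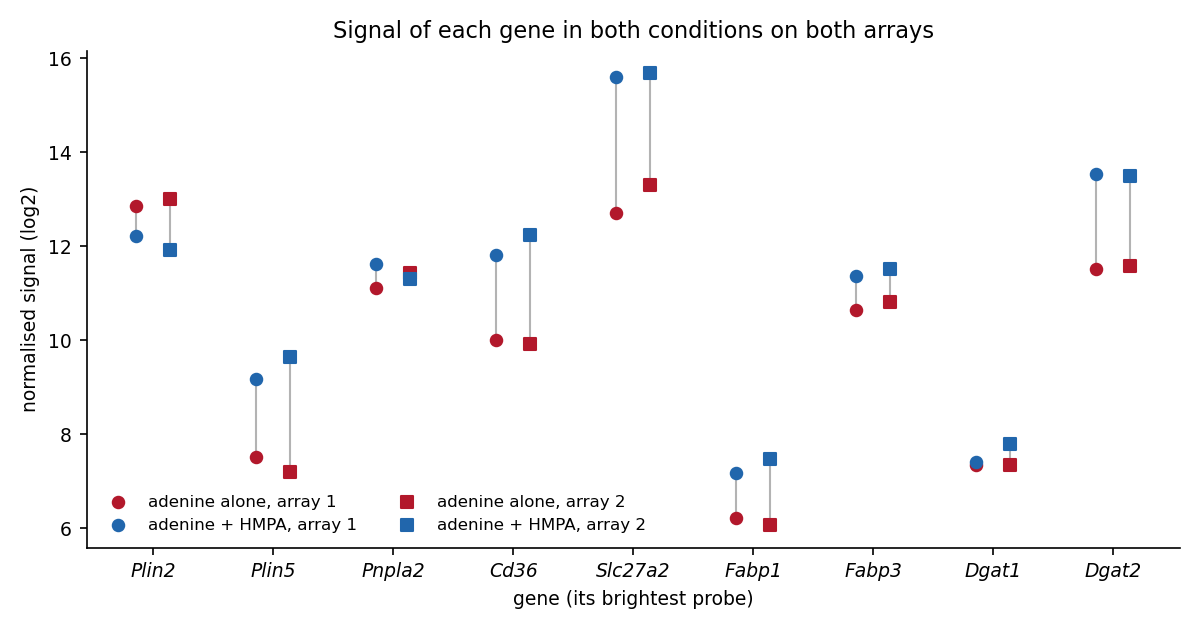
Normalised log2 signal (y axis) of the brightest probe of each of the 9 measured genes (x axis), with adenine alone in red and adenine with HMPA in blue, circles for array 1 and squares for array 2, and a line joining the conditions on an array. Slc27a2, Cd36, Plin5, Dgat2, Fabp1, Fabp3 and, barely on array 1, Dgat1 lie higher with HMPA on both arrays, Plin2 lies lower on both, and Pnpla2 changes order between the arrays. Heights of different genes are not comparable, since each probe has its own response.

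Of the coat genes, Plin5, whose protein ties droplets to mitochondria in oxidative tissues, was 4.16-fold higher. Its normalised log2 signal was 9.18 with HMPA and 7.51 with adenine alone on array 1, and 9.64 and 7.20 on array 2. Both HMPA values lay above both adenine values. That also held for Fabp3 and Dgat1, which did not meet the rule, so it does not set apart the genes that were higher. No share over all genes is given for it. The ratio was 2.06 ± 0.39, the widest spread between arrays among the 9 genes (1.67 and 2.44).

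Plin2, the coat protein found on droplets of most cells, had the opposite sign. Its signal was 12.22 with HMPA and 12.85 with adenine alone on array 1, and 11.92 and 13.01 on array 2, so both HMPA values were the lower ones. The ratio of −0.86 ± 0.23 corresponds to 1.82-fold more signal with adenine alone, short of the 2-fold rule. On array 2 alone the ratio was −1.09 and would pass 2-fold, and on array 1 alone it was −0.64. The 2 coat genes thus had opposite signs on each array.

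Pnpla2, which encodes the lipase for the first step of triglyceride breakdown, gave no stable direction. Its signal was 11.63 with HMPA and 11.10 with adenine alone on array 1, but 11.30 and 11.42 on array 2. The conditions overlapped, and the ratio of 0.20 ± 0.32 was smaller than the distance between arrays. A second probe gave 0.28 ± 0.15, and with median centring the 2 probes were 0.02 and −0.05. The Pnpla2 partners were also short of the rule: Abhd5, its coactivator, was 0.57 ± 0.26 and G0s2, its inhibitor, 0.45 ± 0.30. These partners were singled out after their values were seen.

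Both uptake genes were higher. Slc27a2, with the largest mean ratio of the 9 genes, encodes FATP2, a fatty acid transporter and very long-chain acyl-CoA synthetase of the proximal tubule and liver. Its signal was 15.60 with HMPA and 12.71 with adenine alone on array 1, and 15.68 and 13.30 on array 2. It was 6.18-fold higher (2.63 ± 0.25), which placed it above 99.4% of all measured genes. The 12 proximal tubule markers described below had a median of 2.66, and the part of cell types in the Slc27a2 ratio was not tested. A second Slc27a2 probe gave 2.47 ± 0.08.

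Cd36 encodes a scavenger receptor that binds long-chain fatty acids and is made by tubule cells, macrophages, endothelium and fat cells. Its signal was 11.81 with HMPA and 9.99 with adenine alone on array 1, and 12.24 and 9.92 on array 2. The ratio of 2.07 ± 0.25 made it 4.19-fold higher. The second Cd36 probe gave 2.28 ± 0.27. Macrophage marker genes went the other way: all 12 of that list were lower, and what each cell type contributed to Cd36 was not tested.

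The binding genes differed from each other. Fabp1, the liver-type binding protein, had a signal of 7.18 with HMPA and 6.21 with adenine alone on array 1, and 7.48 and 6.06 on array 2. The ratio was 1.19 ± 0.22, or 2.28-fold, and it is the least certain of the 5 genes that were higher. Its spots were dim: the mean signal on array 1 was 82.3 with HMPA and 65.2 with adenine alone over local backgrounds of 23 and 26, and on array 2 it was 162 and 43.3 over 24 and 22. The size of its ratio changed with the processing: it was 1.78 with a normexp offset of 16 and 2.69 with the scanner software's own ratio. With median centring (0.96), and on array 1 alone (0.97), it fell short of 2-fold.

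Fabp3, the heart-type binding protein, had a signal of 11.36 with HMPA and 10.64 with adenine alone on array 1, and 11.52 and 10.80 on array 2. The arrays gave nearly the same ratio, 0.72 ± 0.0044, or 1.64-fold, and it stayed short of the rule. Fabp5, the epidermal-type binding protein, was not measured. It was not well above background on array 1 in either condition, where its mean signal was 25.7 with HMPA over a background of 22 and 43.5 with adenine alone over 24.5. No ratio is given for it.

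The triglyceride synthesis genes also parted. Dgat2, whose enzyme favours newly made fatty acids, had a signal of 13.55 with HMPA and 11.52 with adenine alone on array 1, and 13.49 and 11.58 on array 2. It was 3.91-fold higher (1.97 ± 0.06). Its other 2 probes gave 1.74 ± 0.03 and 1.23 ± 0.30, and all 3 met the rule. With median centring the dimmest of them, at 0.94, fell short of 2-fold. Dgat1, which catalyses the same last step and is unrelated in sequence, had a signal of 7.40 and 7.34 on array 1 and 7.80 and 7.34 on array 2, for HMPA and adenine alone. The Dgat1 ratio of 0.26 ± 0.20 was close to the spread between arrays, a second probe gave 0.31 ± 0.07, and with median centring they were −0.04 and 0.03.

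**Figure D2:**
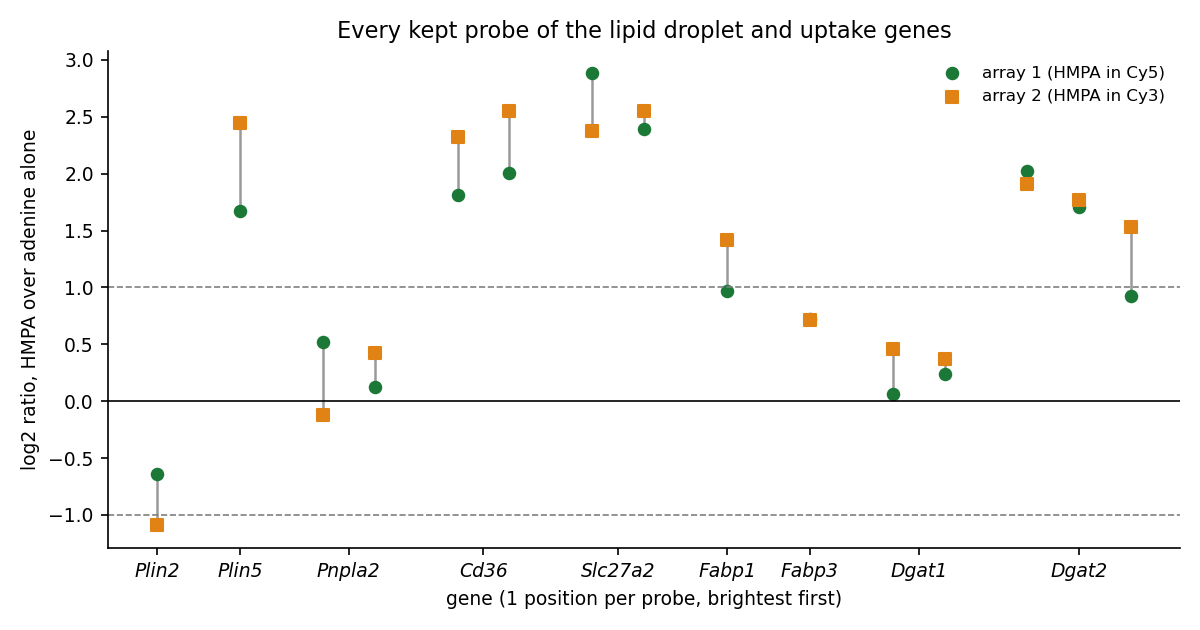
Log2 ratio of HMPA over adenine alone (y axis) for each of the 15 kept probes of the 9 genes (x axis, brightest probe of a gene first), with a green circle for array 1 and an orange square for array 2, joined by a line. Dashed lines mark 2-fold. All 3 Dgat2 probes and both Cd36 and Slc27a2 probes reach at least 0.92 on each array, while those of Pnpla2 and Dgat1 lie between −0.12 and 0.52. The means of the Dgat2 probes run from 1.23 to 1.97.

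In falling order the ratios were Slc27a2, Cd36, Plin5, Dgat2, Fabp1, Fabp3, Dgat1, Pnpla2 and Plin2. Cd36 (2.07), Plin5 (2.06) and Dgat2 (1.97) differed by less than Plin5 did between arrays, so their order cannot be told, and the same holds for Dgat1 (0.26) and Pnpla2 (0.20). Slc27a2 on array 2 (2.38) also fell below Plin5 on that array (2.44). Slc27a2, Cd36, Plin5 and Dgat2 thus lay between 3.91-fold and 6.18-fold, Fabp1 and Fabp3 between 1.64-fold and 2.28-fold, Dgat1 and Pnpla2 near no difference, and Plin2 below it.

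**Figure D3:**
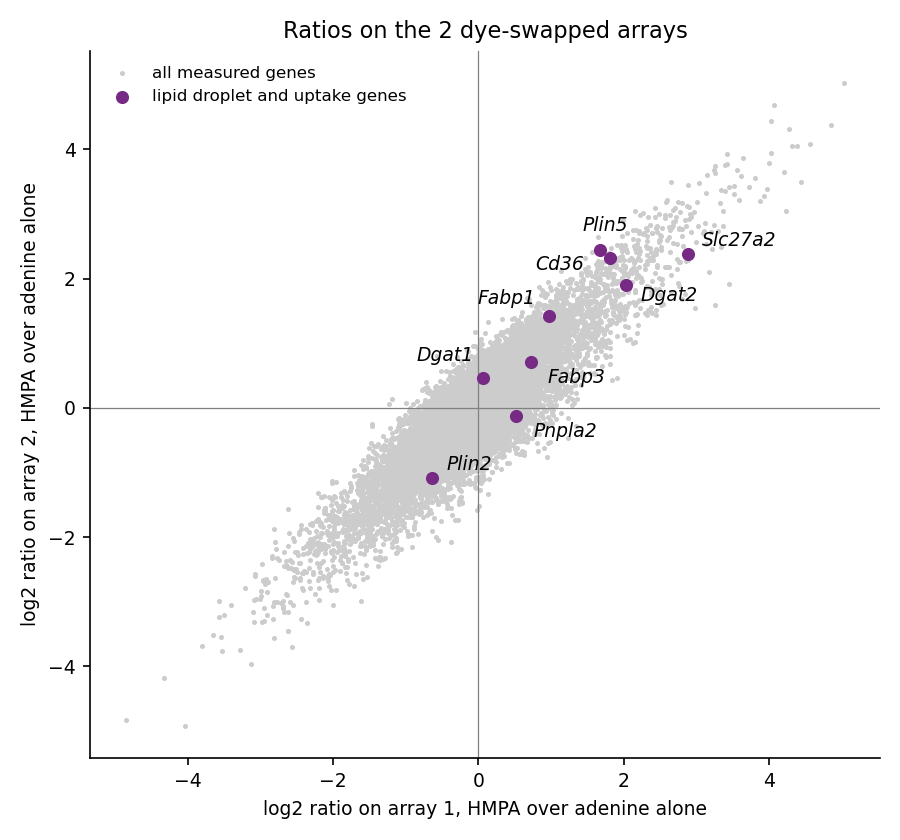
Log2 ratio of HMPA over adenine alone on array 1 (x axis) against array 2 (y axis), with all 16698 measured genes in grey and the 9 lipid genes in purple. Slc27a2, Cd36, Plin5 and Dgat2 lie in the upper right part of the cloud, Plin2 in the lower left, and Pnpla2 has opposite signs on the arrays.

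The probe positions, on mouse build mm9 as the files give them, place the brightest probe of Slc27a2 on chromosome 2 from 126413550 to 126413609, of Cd36 on chromosome 5 from 17288600 to 17288659 and of Plin5 on chromosome 17 from 56251101 to 56251160. That of Dgat2 is on chromosome 7 from 106302215 to 106302274, the Fabp1 probe on chromosome 6 from 71154906 to 71154965, and the Plin2 probe on chromosome 4 from 86302676 to 86302735. For Fabp3 the probe is at 129992608 to 129992667 of chromosome 4, and the brightest Pnpla2 probe on chromosome 7 from 148645930 to 148645989. The second Cd36 probe spans 2433 bases and the Dgat1 probes 147 and 217 bases of genome, more than the 60 bases of the other probes. Whether a probe falls in an exon or a UTR was not assigned, for want of gene models on mm9.

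Beside these 10 genes, 82 other genes of lipid storage and transport were listed by role, and 76 were measured. Of these 76, 20 were higher (26.3%) and 7 lower (9.21%), with a median log2 ratio of 0.51. Over all genes 6.64% were higher and 7.72% lower, so the share that was lower was close to that of all genes. The split depended on the scaling: with median centring it was 14 higher and 10 lower, the median over all genes shifted to −0.22 from −0.04, and over all genes the higher share of those that met the rule went from 46.2% to 27.5%. Of the 27 genes that met the rule, 16 met it under every way of processing tried.

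Among the other droplet proteins, 2 of 14 were higher and 4 lower. Cidec (−2.30 ± 0.06) and Cidea (−1.20 ± 0.06), which fuse droplets in fat cells, were lower, as were the adipocyte perilipin Plin4 (−1.22 ± 0.21) and the hypoxia-induced lipase inhibitor Hilpda (−1.02 ± 0.11). Hilpda was −0.91 on array 2 alone and just short of 2-fold as the mean of its 2 probes. Cideb, the CIDE protein of liver and other epithelia, was higher (1.45 ± 0.09), and so was the droplet dehydrogenase Hsd17b11 (1.32 ± 0.03, and 0.89 over its 3 probes). The Cide genes thus differed in direction among themselves.

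Of 11 lipases and regulators, 2 were higher and 0 lower. Ces1d, a carboxylesterase that hydrolyses triglyceride, had the larger ratio (3.35 ± 0.02). It belongs to a family of close paralogs, so which member the probe measured is uncertain. Mgll, which finishes triglyceride breakdown, was 1.11 ± 0.23, and 0.93 with median centring. Of 8 measured transport proteins and lipoprotein receptors, Vldlr was higher (1.07 ± 0.13, 0.89 with median centring), while Lrp1 (−1.56 ± 0.30) and the HDL receptor Scarb1 were lower. A second Lrp1 probe gave −0.28. Scarb1 was −1.15 on array 1 and −0.86 on array 2, so that its mean only just reached 2-fold. The other members of the Slc27a2 family stayed near 0: Slc27a1 was 0.25 ± 0.07, Slc27a3 −0.27 ± 0.03 and Slc27a4 0.10 ± 0.20, values singled out after they were seen, and Slc27a5 and Slc27a6 were not measured.

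Of 8 measured genes of fatty acid and acyl-CoA binding, Scp2 (1.69 ± 0.09) and Acbd5 (1.26 ± 0.08, 0.98 with median centring), which serve peroxisomal lipid handling, were higher and 0 lower. Fabp4, the adipocyte-type binding protein, was −0.99 ± 0.39, just short of 2-fold. With median centring (−1.07) it was lower, so that the list then held 1 higher and 1 lower. The acyl-CoA synthetases Acsl1 (2.12 ± 0.01) and Acsl3 (1.45 ± 0.03) were higher, and Acsl4 (−0.68 ± 0.13) and Acsl5 (−0.49 ± 0.21) did not meet the rule.

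The list of glycerolipid and sterol ester synthesis had 6 of 17 measured genes higher and 1 lower. Mogat2 (3.58 ± 0.19) and Mogat1 (2.34 ± 0.41), which make the diglyceride that DGAT enzymes use, had the largest ratios, followed by glycerol kinase (Gk, 2.26 ± 0.27) and the mitochondrial acyltransferase Gpam (1.72 ± 0.22). The 4 Gk probes ranged from 0.74 to 2.42, and the second Gpam probe gave 0.61. Agpat4 was lower (−1.42 ± 0.25). The other 10 measured genes of the list met the rule in neither direction, among them Agpat1 (−0.13 ± 0.27), Agpat2 (0.07 ± 0.09) and the lipins Lpin1 (0.88 ± 0.21), Lpin2 (0.42 ± 0.01) and Lpin3 (0.24 ± 0.12), which also act on the way to diglyceride.

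Of 4 genes of lipoprotein export, Mttp, which loads lipid onto apolipoprotein B, was higher (1.17 ± 0.05). Mttp was above background in 3 of 4 channels, and was 0.99 with median centring and 3.54 with the scanner software's ratio. Pltp, which transfers phospholipid between lipoproteins, had the opposite sign (−0.94 ± 0.02, short of the rule) and was −1.25 with median centring, which gave this list 0 higher and 1 lower. Of 10 measured genes of the PPAR list, 4 were higher and 0 lower: the receptor Ppara (1.22 ± 0.15) and the oxidation genes Acadm (2.44 ± 0.0046), Cpt2 (1.94 ± 0.27) and Acadl (1.07 ± 0.37). Ppara (0.94) and Acadl (0.84) fell short with median centring, and Acadl was 0.70 on array 2 alone. Pparg, the receptor of fat cells, was −0.29 ± 0.01.

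**Figure D4:**
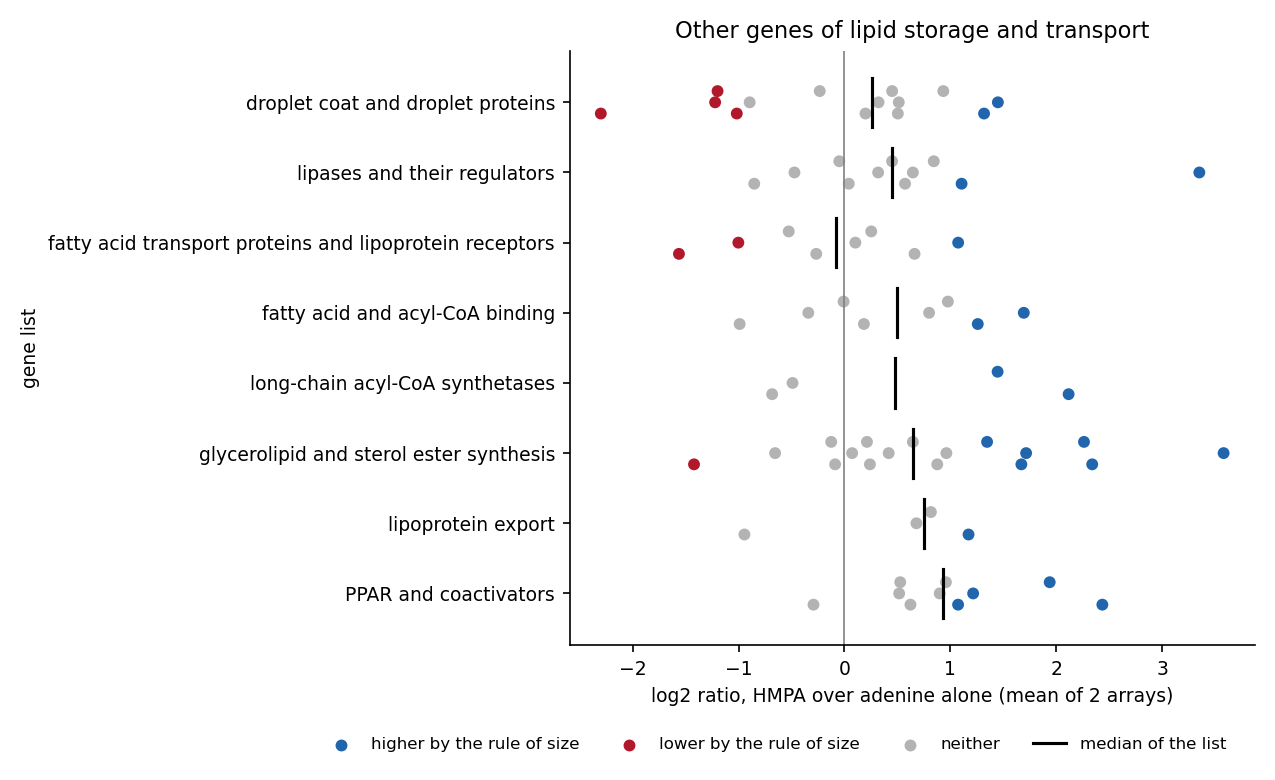
Log2 ratio of HMPA over adenine alone (x axis, mean of both arrays) for the 76 other measured genes of lipid storage and transport, in rows by gene list (y axis), with genes higher by the rule in blue, lower in red and neither in grey, and the median of each list as a black bar. The 20 blue points lie in all 8 lists, and the 7 red points lie among droplet proteins, transport proteins and receptors, and glycerolipid synthesis.

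Markers of some cell types also differed between the conditions, and their part in the results was not tested. Of 12 proximal tubule markers, 11 were higher (median of the list 2.66), up to Slc6a19 (3.97 ± 0.48) and Slc7a13 (5.03 on each array). The lowest ratios of that list were those of Slc5a12 (1.24 ± 0.16) and Aqp1 (0.69), and its summed normalised signal was 234953 and 220394 with HMPA against 31972 and 45586 with adenine alone. All 12 macrophage markers were lower (median −2.10), from Csf1r (−1.41 ± 0.18) and Itgam (−1.62 ± 0.03) to Ctss (−3.04 ± 0.41) and Trem2 (−3.20 ± 0.11), with summed signals of 16339 and 13217 against 101159 and 103671. Of 8 measured adipocyte markers, 3 were lower, Cfd (−4.84 ± 0.01), Cidec and Adipoq (−2.18 ± 0.06), with summed signals of 6469 and 4673 against 18403 and 19614. With median centring 5 of the 8 were lower. Summed signals follow the brightest probes of a list, such as Lyz2 and Ctss for macrophages. For adipocytes these were Cfd and Fabp4, at log2 13.03 and 13.02 with adenine alone on array 1, against 9.34 for Cidec, the next marker. With HMPA, Fabp4 was brighter than Cfd, at 12.42 against 8.18 on array 1 and 11.86 against 8.21 on array 2. Which cells gave the Fabp4 signal was not tested. Retn (−0.20 ± 0.01) and Lipe (0.04 ± 0.05) did not meet the rule, and Lep and Adig were not measured. The adipocyte list shares Plin1, Cidec, Lipe, Fabp4 and Pparg with the lists above. Of 7 measured hepatocyte markers, Apoh (3.21 ± 0.17) and Alb (1.05 ± 0.13) were higher. Alb was above background in 3 of 4 channels, and was 0.92 on array 1 alone and 4.26 with the scanner software's ratio, and it fell short of 2-fold with median centring. Fgb (−0.74 ± 0.18) and Ambp (−0.38 ± 0.07) met the rule in neither direction, although Fgb was −1.06 with median centring. Of 10 endothelial markers, 0 met the rule, from Emcn (−0.55 ± 0.14) and Vwf (−0.44 ± 0.01) to Tek (0.32 ± 0.15) and Kdr (0.51 ± 0.10), with a median of −0.12 (−0.39 with median centring). Of 10 markers of other nephron segments 4 were higher, among them Atp6v1g3 (1.74 ± 0.13) and Calb1 (1.45 ± 0.10), and the podocyte genes Nphs1 (0.05 ± 0.19) and Podxl (−0.09 ± 0.21) were lowest.

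**Figure D5:**
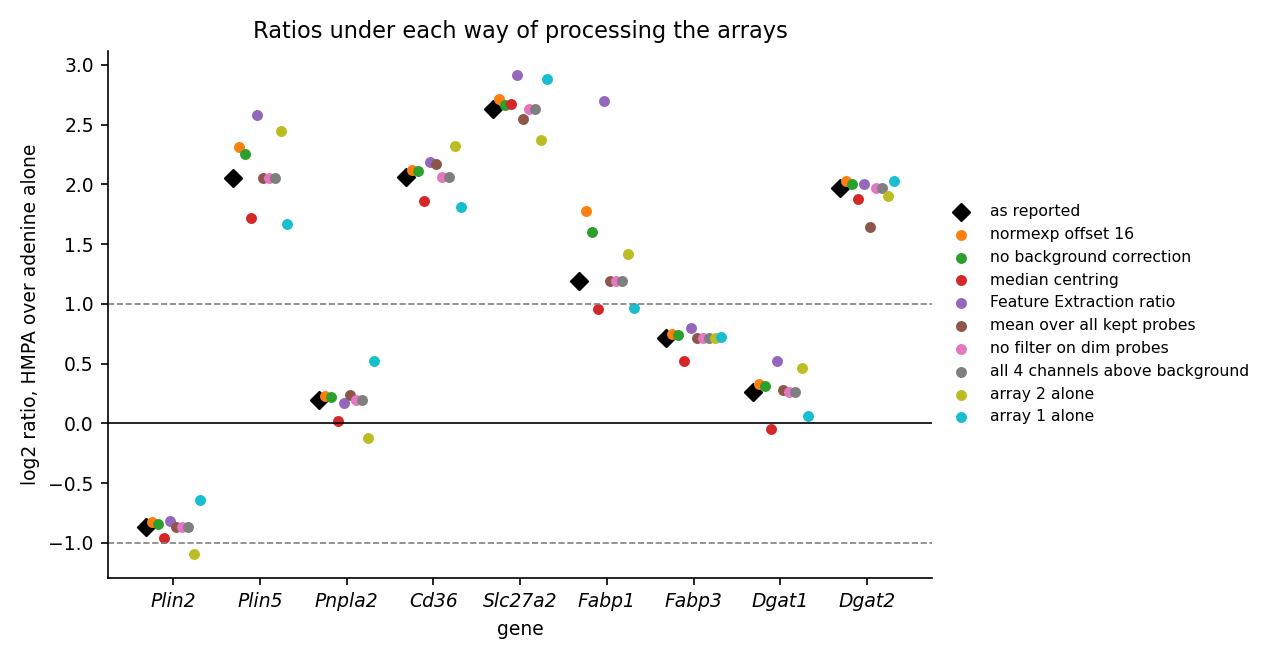
Log2 ratio of HMPA over adenine alone (y axis) for the 9 genes (x axis) as reported (black diamonds) and under 9 other ways of processing (coloured points), with dashed lines at 2-fold. Slc27a2, Cd36, Plin5 and Dgat2 stay above 2-fold in all of them, Fabp1 ranges from 0.96 to 2.69, and Plin2 stays below 0, from −1.09 to −0.64. The changes of filter could not move any of the 9 genes, whose probes were above background in all 4 channels.

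Across those ways of processing, Slc27a2 ranged from 2.38 to 2.92, Cd36 from 1.81 to 2.32, Plin5 from 1.67 to 2.58 and Dgat2 from 1.64 to 2.03. Fabp3 ranged from 0.52 to 0.80 and never met the rule. Dgat1 (from −0.04 to 0.52) and Pnpla2 (from −0.12 to 0.52) crossed 0.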

How the data were processed

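Kidney RNA was labelled with Cy3 or Cy5. The authors used an Agilent scanner and, per the file headers, Feature Extraction 12.2.0.7, while the submitters' processing notes name version 9.5. The deposited signal and background columns hold intensity without normalization. The deposited ratio is log10 of Cy5 over Cy3 after the software's own correction, and the deposited value table repeats it, within 0.00499, not turned for the swap. Intensities were corrected with normexp (offset 50) and loess within each array in limma 3.58.1 (R 4.3.3), with control and unreliable spots at weight 0. Later steps used Python 3.11.15. A probe was kept where both arrays called it well above background for at least 1 and the same condition (25137 of 41174), and a gene took its brightest kept probe. Of the 16 probes of the 10 genes, 13 were named by RefSeq accession and 3 by symbol, and 0 were saturated or unreliable. Levels per condition were scaled between arrays by Aquantile. Genes named from other lists were up to 4 per role list and direction that met the rule of size, and the extremes of each marker list. Other genes of the role lists that are named without meeting the rule were chosen after their values were seen. Members and lists were chosen with earlier results of these data known. Alternatives covered background correction, scaling, probe choice, the filter and each array alone. The procedure was also run on simulated data, with ratios set for a small number of probes above background in every channel. Differences as widespread as those seen here were not simulated. The number of arrays limits precision.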

Additional observations from a re-analysis of the deposited data

How the results depend on the processing

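Fabp1 changed most with the processing: 1.78 with the smaller offset, 2.69 with Feature Extraction's ratio, 0.96 with median centring, and from 0.97 on array 1 to 1.42 on array 2 alone. The median of the 9 genes was 1.78 with an offset of 16 and, using the software's ratio, 2.00. Plin2 ranged from −1.09 to −0.64 between single arrays, so the count of lower genes among the 9 was 0 or 1. Over all genes, 1109 were higher and 1289 lower as reported, 1973 were lower with median centring, and 2043 were higher and 2461 lower with Feature Extraction's ratio. The cause was not tested. Slc27a2, Cd36, Plin5 and Dgat2 kept their direction and met the rule in all 9 alternatives. The changes of filter could not alter these ratios, since the probes used were above background in all 4 channels. Plin5, with 1 probe, could not change with the mean over probes either. Signal over background limits Fabp1 and Fabp5. With 1 RNA sample per condition, no spread between animals could be measured.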
